A study of Mus musculus with 12 samples.

Results

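The 8 genes described here encode the megalin-cubilin uptake machinery of the kidney and its closest partners: Lrp2, Cubn, Amn, Lrpap1, Dab2, Folr1, Clcn5 and Fcgrt. They were taken by gene symbol from the 40213 genes in the count files, and all 8 were among the 17841 genes that passed the low-count filter. Kidney RNA from C57BL/6 mice was sequenced in 12 libraries, 4 per group. Control mice received saline by intraperitoneal injection and a normal diet. Mice with chronic kidney disease (CKD) received saline and a diet with 2% adenine, a purine whose crystalline product injures the tubules. The third group received colchicine, a tubulin-binding drug, injected intraperitoneally each day at 0.3 mg/kg, together with an adenine diet. That diet is labelled 2% in colchicine replicate 1 and 3, 4 and 5% in replicates 2, 3 and 4, so in those 3 libraries colchicine and the labelled adenine percentage cannot be told apart. The design text names a single adenine model, so whether these percentages were the diets given is uncertain, and every value that uses them depends on the labels. Sex, age and treatment length are not given in sources used here. The titles of the colchicine group speak of biological replicates, those of the other groups only of replicates, and none names an animal. Each p-value therefore reflects only the spread among these libraries, which may be technical.

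The proximal tubule takes back proteins that pass the glomerular filter. Megalin, encoded by Lrp2, is a giant receptor of the low-density lipoprotein (LDL) receptor family, and cubilin, encoded by Cubn, is a membrane-associated receptor that reaches the apical surface bound to amnionless, encoded by Amn. The receptors enter the cell in clathrin-coated pits with the adaptor Dab2, release their cargo in acidified endosomes and return to the brush border. Albumin, vitamin-binding proteins and many filtered hormones and enzymes are ligands, and loss of the system gives low-molecular-weight proteinuria.

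The sequences upstream of the receptor genes are shown because Lrp2, Cubn and Amn encode the receptor complex itself. Their start regions differ in base composition. RefSeq promoter windows (build GRCm38.p6) matched 7 of the 8 genes, all but Folr1. Each line gives the 250 bases before the annotated start, 5′ to 3′ on the strand of the gene, with CG dinucleotides in capitals. The Lrp2 window is chr2:69586030-69586279 (minus strand), the Cubn window is chr2:13491877-13492126 (minus strand) and the Amn window is chr12:111270846-111271095 (plus strand).
Lrp2: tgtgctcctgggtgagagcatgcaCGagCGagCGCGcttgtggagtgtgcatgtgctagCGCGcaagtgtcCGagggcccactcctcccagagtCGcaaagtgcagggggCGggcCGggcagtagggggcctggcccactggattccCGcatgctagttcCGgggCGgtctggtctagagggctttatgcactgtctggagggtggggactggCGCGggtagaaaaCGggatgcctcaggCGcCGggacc
Cubn: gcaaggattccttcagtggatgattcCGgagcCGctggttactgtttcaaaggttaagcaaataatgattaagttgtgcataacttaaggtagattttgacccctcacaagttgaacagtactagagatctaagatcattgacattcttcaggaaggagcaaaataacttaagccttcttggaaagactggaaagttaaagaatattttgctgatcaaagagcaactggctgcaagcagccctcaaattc
Amn: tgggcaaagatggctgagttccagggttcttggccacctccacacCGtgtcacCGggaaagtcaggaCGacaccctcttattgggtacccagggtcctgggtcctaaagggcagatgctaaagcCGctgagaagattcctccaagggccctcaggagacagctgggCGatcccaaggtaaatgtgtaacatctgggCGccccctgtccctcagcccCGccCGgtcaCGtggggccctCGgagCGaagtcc
The Lrp2 window held 18 CG dinucleotides at 66.4% G and C, the Amn window 11 at 61.2% and the Cubn window 2 at 39.6%, against medians of 6 and 52.4% over 32851 windows of the same length. Of all windows, 80.3% held no more CG than that of Lrp2, 66.5% no more than that of Amn and 29.0% no more than that of Cubn. On both strands, GGGCGG (the GC box) was found 2 times before Lrp2, 1 time before Amn and not before Cubn, and 32.7% of all windows hold it. CACGTG (the E-box) was found 1 time before Amn and is in 6.02% of windows. TATAAA (the TATA box, in 12.4% of windows) was in none of the 3. These matches describe letters in one window and are not binding sites.

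Library totals ranged from 22.2 to 38.3 M (M, 1000000 counts). Transcripts of the mitochondrial genome took 41.5 to 46.7% of counts in control, 16.7 to 17.3% in CKD and 14.6 to 21.8% with colchicine. Levels are given as counts per 1000000 (CPM) after TMM (trimmed mean of M-values) scaling. The median log2 fold change of CKD against control over all genes was 0.04 under this scaling and 1.05 when libraries were scaled by their totals alone, so changes against control are relative to that choice. Of the genes called in that comparison 50.5% were higher, against 87.7% with totals alone and 73.3% with totals that leave out mitochondrial transcripts. The tissue label was checked on 20 proximal tubule markers, none of them at 0 in all libraries. Their summed level was 59113 to 63805 CPM in control, 3987 to 5152 in CKD and 1883 to 3763 with colchicine.

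In adenine CKD, transcripts of all 8 genes fell, except that scaling by library totals alone left Dab2 at a log2 fold change of 0.05. Lrp2 fell the most, to 10.7-fold below control, and Dab2 the least, to 1.94-fold below. In none of the 8 genes did a CKD library reach the range of the controls. Here and below, the share of all genes with groups as separate is not given. Calls were made where the adjusted p fell below 0.05 in edgeR's quasi-likelihood test over all 17841 genes, and 33.4% of all genes were called lower and 34.1% higher in this comparison. The median log2 fold change was -2.30 over the 8 genes, 0.04 over all genes tested and -3.45 over the proximal tubule markers, of which 20 of 20 fell. In whole kidney, fewer proximal tubule cells and less RNA per cell cannot be told apart.

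Among the receptors, Lrp2 fell further than Cubn and Amn. Lrp2 stood at 1137, 1191, 1138 and 1440.1 CPM in the 4 controls and at 116, 93.4, 138 and 113 CPM in the 4 CKD libraries. Every CKD library was far below every control, and control replicate 4 was the highest of its group. The log2 fold change was -3.41 ± 0.33 (SE), with an adjusted p of 1.54e-06 in edgeR's test. That test takes the spread of a gene from all 12 libraries, so the colchicine libraries enter this SE and p. The SD of Lrp2 was 49.3% of its mean with colchicine, against 11.8% in control and 15.7% in CKD. For Cubn these shares were 48.0, 14.9 and 15.5%. Cubn, whose product binds the intrinsic factor-vitamin B12 complex, albumin and apolipoprotein A-I, stood at 280.0, 291, 279 and 374 CPM in control and at 64.9, 52.3, 74.0 and 56.5 CPM in CKD. The groups did not overlap, and again control replicate 4 was the highest. The fall was 4.95-fold (log2 fold change -2.31 ± 0.30, adjusted p 2.75e-05 in edgeR). Amn, the anchor and chaperone of cubilin, measured 61.3, 64.6, 64.7 and 58.2 CPM in control and 12.1, 12.9, 12.7 and 13.1 CPM in CKD. Both groups were tight and well apart, and the fall of 4.90-fold (log2 fold change -2.29 ± 0.15, edgeR adjusted p 4.55e-09) was close in size to that of Cubn.

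Lrpap1 encodes RAP, the endoplasmic reticulum chaperone that keeps megalin from binding ligands on its way to the surface. It stood at 811, 778, 716 and 733 CPM in control and at 139, 132, 148 and 143 CPM in CKD. The 4 libraries of each group lay close together, and the level fell 5.40-fold (log2 fold change -2.43 ± 0.07, edgeR adjusted p 1.43e-12). Folr1 encodes the folate receptor, which retrieves filtered folate at the same membrane. Its levels were 330.5, 337, 320.4 and 314 CPM in control against 45.1, 46.1, 52.8 and 49.6 CPM in CKD. No library crossed between the groups. The fall was 6.72-fold (log2 fold change -2.75 ± 0.12, edgeR adjusted p 3.14e-11), second in size to that of Lrp2.

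The 3 other genes fell by 1.94- to 2.19-fold. Dab2, the clathrin adaptor that binds the tails of megalin and its relatives, stood at 639.5, 649, 625 and 746 CPM in control and 336, 328, 374 and 332 CPM in CKD (log2 fold change -0.96 ± 0.12, edgeR adjusted p 2.60e-06). Clcn5, the endosomal chloride-proton exchanger mutated in Dent disease, stood at 72.2, 70.8, 67.5 and 80.9 CPM in control and 33.4, 33.2, 35.9 and 31.9 CPM in CKD (log2 fold change -1.12 ± 0.12, edgeR adjusted p 6.72e-07). Fcgrt, the heavy chain of the neonatal Fc receptor, which rescues albumin and IgG from degradation, stood at 197, 204, 179 and 176 CPM in control and 81.7, 82.1, 91.4 and 89.2 CPM in CKD (log2 fold change -1.13 ± 0.09, edgeR adjusted p 4.02e-08). In all 3 the groups were separate, and the 4 CKD libraries lay close together. These 3 calls rest on the scaling: with library totals alone the log2 fold changes were 0.05 for Dab2, -0.11 for Clcn5 and -0.12 for Fcgrt, none called, while the other 5 genes were still called lower. Dab2 and Fcgrt are also known in macrophages and endothelium. The 10 macrophage markers all rose, their summed level going from 106 to 129 CPM in control to 1889 to 1946 CPM in CKD, and 7 of 8 endothelial markers fell (6 rose and 1 fell with library totals alone). Their part in the levels of Dab2 and Fcgrt was not tested.

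**Figure D1:**
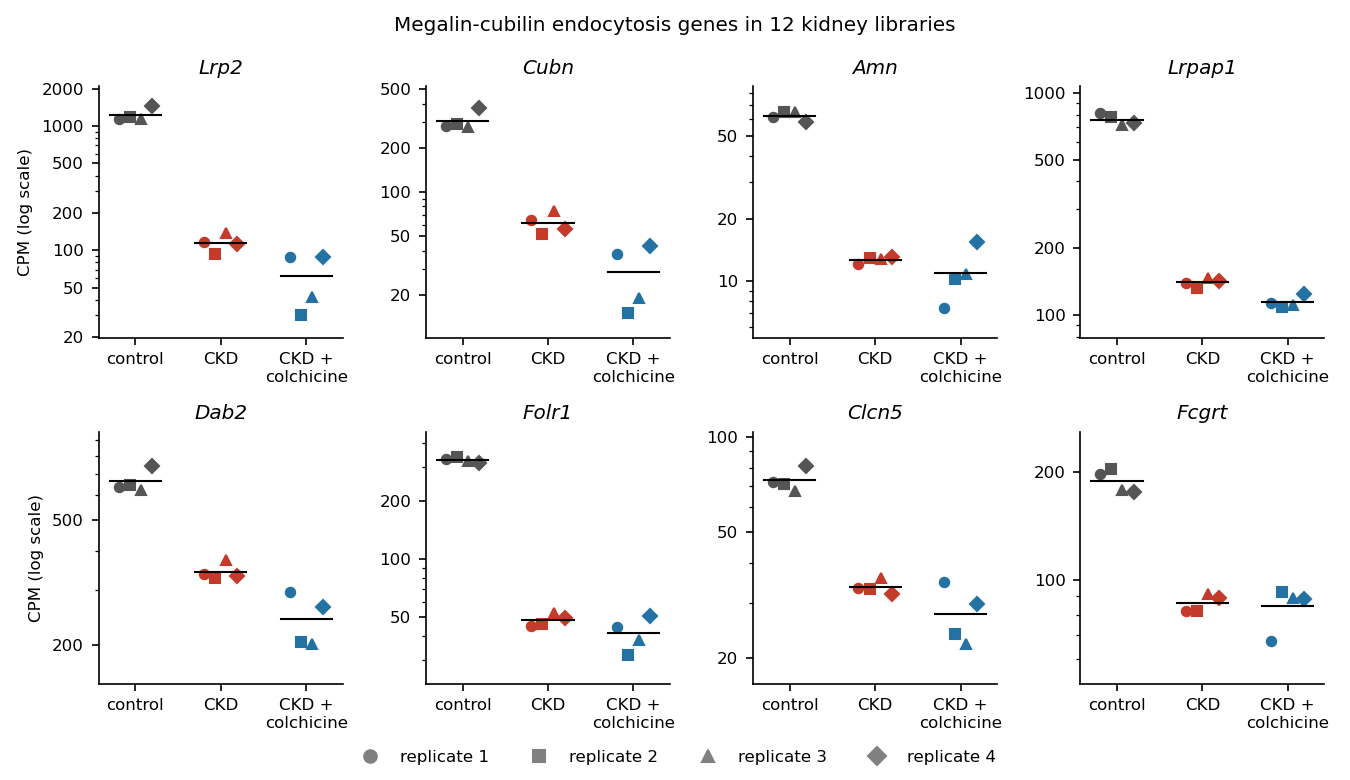
CPM of the 8 genes on logarithmic axes, 1 point per library with its replicate number as the symbol, and a bar at each group mean. On this TMM scale all CKD and colchicine points lie below all control points, and the colchicine points of Lrp2 and Cubn spread between 30.0 and 89.0 CPM and between 15.0 and 42.8 CPM.

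Ratios of counts within a library do not depend on the scaling, but an effect of transcript length need not cancel in them. The median log2 fold change of CKD against control was -0.38 for genes under 1500 bases and 0.25 for genes over 10000 bases. The part of length in the ratios was not tested. Each of the other 7 genes rose relative to Lrp2 in CKD, without overlap between the groups, by 2.47 for Dab2, 2.30 for Clcn5, 2.29 for Fcgrt, 1.13 for Amn, 1.11 for Cubn, 0.99 for Lrpap1 and 0.67 for Folr1 on the log2 scale. Each had an exact two-sided permutation p of 0.0286, the smallest that 70 arrangements of 4 against 4 allow, and an adjusted p of 0.0457 over 24 ratio tests. Control libraries held the Cubn to Lrp2 ratio at a log2 value of -2.01 ± 0.04 (SD, n = 4) and CKD libraries at -0.89 ± 0.08. The Amn to Cubn ratio was -2.29 ± 0.27 in control and -2.27 ± 0.25 in CKD, a difference of 0.02 (exact permutation p = 0.971).

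Levels of different genes were compared per kilobase of the GENCODE M21 principal transcript (GRCm38), a length from 1313 bases for Folr1 to 15460 for Lrp2. In control the order in CPM per kilobase was Lrpap1 at 255 ± 14.4, Folr1 at 248 ± 7.55, Dab2 at 143 ± 11.8, Fcgrt at 107 ± 7.76, Lrp2 at 79.3 ± 9.35, Amn at 36.6 ± 1.82, Cubn at 27.2 ± 4.05 and Clcn5 at 8.69 ± 0.682 (SD, n = 4). Lrpap1 and Folr1 overlapped in range and the other neighbours in that order did not. In CKD the leading places went to Dab2 at 73.5 ± 4.53, Fcgrt at 48.7 ± 2.78, Lrpap1 at 47.2 ± 2.17 and Folr1 at 36.9 ± 2.68 CPM per kilobase. Fcgrt and Lrpap1 overlapped. Amn at 7.45 ± 0.253 and Lrp2 at 7.45 ± 1.17 stood level, with Cubn at 5.50 ± 0.854 and Clcn5 at 4.01 ± 0.198 below, and Lrp2 and Cubn overlapped in range. With colchicine the same 4 genes led in the same order, Dab2 at 51.9 ± 9.87, Fcgrt at 47.6 ± 6.33, Lrpap1 at 38.4 ± 2.26 and Folr1 at 31.4 ± 6.25, and Lrp2 at 4.03 ± 1.99 and Clcn5 at 3.30 ± 0.689 stood above Cubn at 2.55 ± 1.23. In that group only Folr1 and the next gene, Amn at 6.44 ± 1.93, were neighbours without overlap.

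Colchicine added to adenine was set against adenine alone. Cubn, Lrpap1 and Dab2 were called lower and 5 genes were not called. The number called higher was 0 by edgeR, DESeq2 and limma-voom. All 8 log2 fold changes in edgeR were negative, from -1.11 to -0.03, so no threshold could call a gene higher there. Over all genes 8.24% were called lower and 6.79% higher. The median log2 fold change was -0.29 over the 8 genes, 0.03 over all genes tested and -0.69 over the proximal tubule markers, 10 of 20 of which fell (4 without CKD replicate 3 or colchicine replicate 3, and 17 without colchicine replicate 4). Of all genes called, 45.2% were higher, against 59.8% under upper-quartile scaling. The CKD libraries also serve as the first comparison's disease group, so these values share libraries with those above.

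Lrp2 stood at 88.2, 30.0, 42.2 and 89.0 CPM in colchicine replicates 1, 2, 3 and 4. All 4 lay below the lowest CKD library at 93.4 CPM, though replicates 1 and 4 lay just below it. The log2 fold change of -0.89 ± 0.30 had an adjusted p of 0.0670 in edgeR and was not called. It was called by DESeq2 (-0.90, adjusted p 0.0248) and limma-voom (-1.03, adjusted p 0.0397), and by edgeR without colchicine replicate 1 (adjusted p 0.0316) or without colchicine replicate 4 (adjusted p 0.0405). Over all its alternatives the direction did not change. Cubn followed the same libraries at 38.3, 15.0, 19.0 and 42.8 CPM. All 4 were below CKD, and the fall of 2.16-fold (log2 fold change -1.11 ± 0.29) had an edgeR adjusted p of 0.0298. That call was lost when CKD replicate 1, 3 or 4 or colchicine replicate 3 was left out (adjusted p 0.0550 to 0.0864), in a fit of only the 8 libraries (0.0552), with no low-count filter (0.0800), and with a slope for labelled adenine read at 2% (0.179). Amn stood at 7.44, 10.2, 10.8 and 15.4 CPM, overlapping the CKD range, and was not called (log2 fold change -0.22 ± 0.15, edgeR adjusted p 0.330). It was called lower by edgeR with the adenine slope (-0.74, adjusted p 0.000912) and without colchicine replicate 4 (-0.42, adjusted p 0.0268). For colchicine replicate 1 alone, a group of 1 library, the log2 fold change of Amn was -0.78.

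Lrpap1 stood at 113, 109, 111 and 124 CPM with colchicine. All 4 were below the lowest CKD library, a fall of 1.23-fold (log2 fold change -0.30 ± 0.07, edgeR adjusted p 0.0148) that was lost without CKD replicate 3 (adjusted p 0.0589). Dab2 stood at 295, 206, 201 and 266 CPM, again all below CKD. Its fall was 1.42-fold (log2 fold change -0.50 ± 0.11, edgeR adjusted p 0.0121) and was not called with the adenine slope (-0.43, adjusted p 0.129). Folr1 at 44.4, 31.8, 38.1 and 50.9 CPM (log2 fold change -0.23 ± 0.11, edgeR adjusted p 0.169), Clcn5 at 34.9, 23.9, 22.2 and 29.7 CPM (-0.28 ± 0.12, adjusted p 0.113) and Fcgrt at 67.7, 92.3, 88.8 and 88.6 CPM (-0.03 ± 0.09, adjusted p 0.843) overlapped the CKD libraries and were not called. Folr1 was called lower without colchicine replicate 4 (adjusted p 0.0403) and Clcn5 without colchicine replicate 1 (adjusted p 0.00274). For colchicine replicate 1 alone, the library whose labelled adenine equals that of the CKD group, the log2 fold change was -0.78 for Amn. It was -0.70 for Cubn, -0.32 for Lrpap1 and -0.22 for Dab2. A single library gives no spread of its own.

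**Figure D2:**
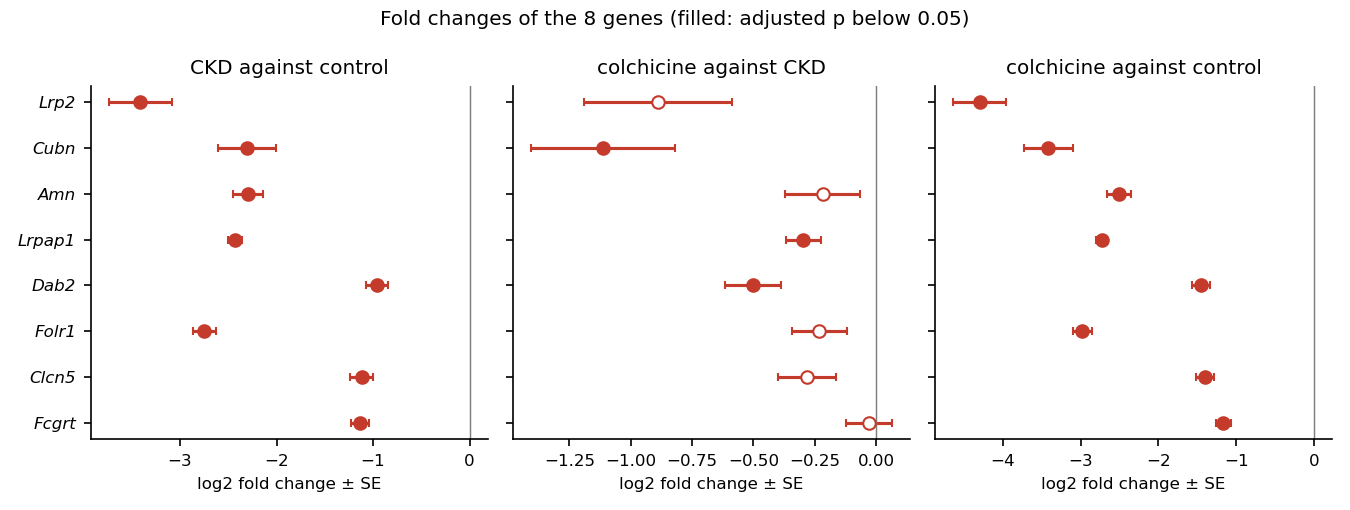
Log2 fold changes of the 8 genes in the 3 comparisons, under TMM scaling, with bars of 1 SE and filled points where the adjusted p was below 0.05. The CKD and colchicine values against control lie between -4.30 and -0.96, and those of colchicine against CKD between -1.11 and -0.03.

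The 4 colchicine libraries did not move as a block. As deviations from the group mean of log2 CPM, Lrp2 lay at 0.65, -0.90, -0.41 and 0.66 in replicates 1, 2, 3 and 4, and Cubn at 0.55, -0.80, -0.46 and 0.71. Dab2 (0.31, -0.22, -0.24 and 0.16) and Clcn5 (0.36, -0.19, -0.29 and 0.12) were high and low in the same libraries with smaller steps. The levels of these 4 genes do not run in the order of the labelled adenine percentage. Those of Amn do, from the lowest in replicate 1 to the highest in replicate 4 (-0.51, -0.05, 0.02 and 0.53). So does the share of mitochondrial transcripts (14.6, 16.1, 18.9 and 21.8%), with 1 library at each percentage. Lrpap1 (-0.01, -0.06, -0.04 and 0.12), Folr1 (0.13, -0.35, -0.10 and 0.32) and Fcgrt do not. The share of all genes that run in that order is not given. In addition, Fcgrt was lowest in replicate 1 (-0.31, with the others between 0.08 and 0.14). The summed proximal tubule markers were 2440 CPM in replicate 1, 1883 in replicate 2, 2613 in replicate 3 and 3763 in replicate 4. Transcript length moved with colchicine replicate 1 too. Genes over 10000 bases, the class of Lrp2 and Cubn, had a median deviation of 0.12 there and of -0.04, -0.02 and -0.06 in the others, and genes under 1500 bases had -0.11 there and 0.02 to 0.08 in the others. Control replicate 4 was skewed alike, with median deviations of 0.09 for genes over 10000 bases and -0.11 for genes under 1500 bases. The part of length in the members' values was not tested.

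**Figure D3:**
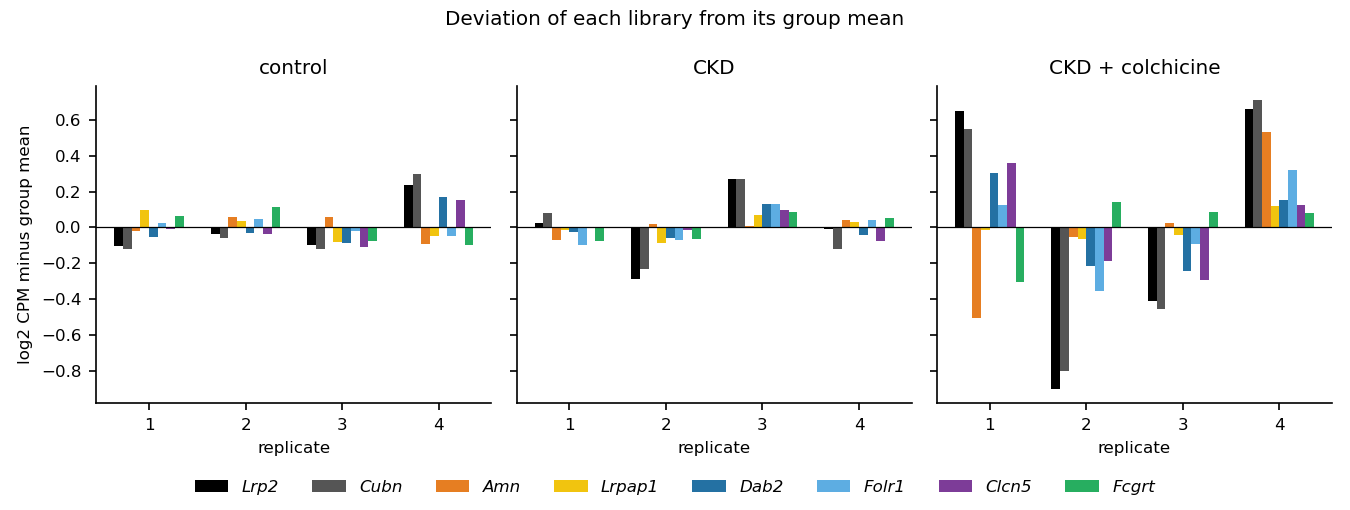
Deviation of each gene in each library from the mean log2 CPM of its group, as bars from 0, with 1 panel per group and the libraries along the axis. The widest deviations are those of Lrp2 and Cubn in the colchicine group, from -0.90 to 0.71, and Amn and Fcgrt are low in colchicine replicate 1.

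Within libraries, the Cubn to Lrp2 ratio held together although both levels spread about 3-fold. Its log2 value with colchicine was -1.10 ± 0.09 (SD, n = 4), 0.21 below CKD, which was not past the threshold (exact permutation p = 0.0571, adjusted 0.0807). Folr1 to Lrp2 was 0.77 higher than in CKD without overlap (exact permutation p = 0.0286, adjusted 0.0457). It was the only one of the 8 ratios past the threshold in this comparison. That adjustment pools the 24 ratio tests of the 3 comparisons, and its value is lowered by the ratios against control that have the same p. Amn to Cubn was 0.97 higher with overlap between the groups (exact permutation p = 0.0857, adjusted 0.103). Its log2 values in colchicine replicates 1, 2, 3 and 4 were -2.36, -0.55, -0.82 and -1.48. Replicate 1 thus sat in the CKD range of -2.54 to -2.02 and the other 3 above it. For colchicine against CKD the median log2 fold change was 0.13 for genes under 1500 bases and -0.08 for genes over 10000 bases. The part of length in these ratios was not tested.

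Against control, colchicine-treated CKD kidneys had lower transcripts of all 8 genes, again with no overlap, where 33.4% of all genes were called lower and 37.1% higher. The log2 fold changes in edgeR were -4.30 ± 0.34 for Lrp2, -3.42 ± 0.32 for Cubn, -2.98 ± 0.12 for Folr1, -2.73 ± 0.08 for Lrpap1, -2.51 ± 0.15 for Amn, -1.46 ± 0.12 for Dab2, -1.40 ± 0.12 for Clcn5 and -1.16 ± 0.09 for Fcgrt. The largest of the 8 adjusted p-values was 1.18e-06, for Cubn. The median over the 8 was -2.62, beside 0.10 over all genes. Fcgrt was not called with library totals alone (-0.13, adjusted p 0.198). Of all genes called, 52.6% were higher, against 87.6% with library totals alone, 74.9% with totals that leave out mitochondrial transcripts and 62.7% under upper-quartile scaling. The controls are the same libraries as in the comparison of CKD with control.

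Lists of genes that work with this machinery were read from the same fits. Over all genes, 34.1% were called higher and 33.4% lower in CKD, and 6.79% higher and 8.24% lower with colchicine against CKD. Of 19 genes of the clathrin coat and its adaptors, 3 rose and 6 fell in CKD (median log2 fold change 0.00), but 16 rose with library totals alone. Gulp1, an engulfment adaptor, rose from 6.45 ± 1.69 to 19.0 ± 1.65 CPM (SD, n = 4; log2 fold change 1.55 ± 0.14). Myo6, the motor that pulls coated vesicles inward from the brush border, fell from 242 ± 25.8 to 124 ± 3.59 CPM (-0.97 ± 0.08), but was at 0.04 and not called with totals alone. With colchicine against CKD, 3 of the 19 rose and 4 fell. The small AP-2 subunit Ap2s1 rose by 0.41 ± 0.10 and the clathrin heavy chain Cltc fell by 0.36 ± 0.10 on the log2 scale. Leaving out 1 library moved these counts to between 0 and 5 higher and between 0 and 9 lower, the most without colchicine replicate 1. The call of Cltc was lost without CKD replicate 1, 3 or 4 or colchicine replicate 2 or 3 (edgeR adjusted p 0.0529 to 0.0920), and that of Ap2s1 without CKD replicate 3 or colchicine replicate 2 (0.0592 and 0.0535). With DESeq2 size factors 1 rose and 4 fell, under upper-quartile scaling 3 rose and 2 fell, and with library totals 3 rose and 1 fell.

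Of 21 genes of endosome sorting and ion exchange, 2 rose and 13 fell in CKD (median -0.36), against 16 up and 2 down with library totals alone. The recycling genes Ehd1 and Rab4a fell (-1.09 ± 0.07 and -1.08 ± 0.08), while Ocrl, the inositol phosphatase mutated in Lowe syndrome, rose by 0.38 ± 0.09. With totals alone Ehd1 and Rab4a were at -0.08 and -0.07, neither called. With colchicine against CKD 1 of the 21 rose and 5 fell, among them Inpp5b, a relative of Ocrl (-0.52 ± 0.09), and the retromer subunit Vps26a (-0.42 ± 0.10). The number that fell ranged from 1 without colchicine replicate 2, where Vps26a was not called (edgeR adjusted p 0.0527), to 10 without colchicine replicate 1, and the number that rose from 0 to 2. Of 15 lysosomal genes, 7 rose and 6 fell in CKD (median 0.07; 14 rose with totals alone). The protease Ctsd (1.28 ± 0.09) and the hexosaminidase subunit Hexa (1.44 ± 0.12) rose. Ctns, the cystine exporter, was not called (-0.14 ± 0.08, edgeR adjusted p 0.125). With colchicine 6 of the 15 fell, among them the protease Ctsh (-0.49 ± 0.08), and leaving out 1 library gave 3 (without CKD replicate 3) to 9 (without colchicine replicate 1).

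Relatives of megalin moved in both directions, as did the genes tested at large. Of all genes, 34.1% were called higher and 33.4% lower in CKD, and 6.79% and 8.24% with colchicine against CKD. Of 13 other genes of the LDL receptor family 12 were tested, all but Lrp1b, and 3 rose and 6 fell in CKD (median -0.17; 9 rose and 1 fell with library totals alone). Lrp1 stood at 43.6, 43.6, 41.6 and 44.7 CPM in control, 205, 200.4, 192 and 181 CPM in CKD and 219, 267, 218 and 199.5 CPM with colchicine. Both disease groups were above every control, and the log2 fold change of CKD against control was 2.17 ± 0.09 (edgeR adjusted p 1.68e-11). Lrp1 is known in fibroblasts and macrophages, and 6 of 6 fibroblast markers rose in CKD, from 321 to 384 CPM summed in control to 2452 to 2952 CPM. Their part in the level of Lrp1 was not tested. Vldlr fell (-1.10 ± 0.09; -0.09 and not called with totals alone). With colchicine against CKD 1 of the 12 rose, Lrp3 (0.29 ± 0.09), and 1 fell, Lrp6 (-0.26 ± 0.08). Both calls were lost in edgeR when any 1 of the 4 CKD libraries or of colchicine replicates 2, 3 and 4 was left out (adjusted p 0.0646 to 0.111). Upper-quartile scaling gave 2 higher and 0 lower, and DESeq2 size factors gave 0 higher and 1 lower.

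Carriers and transporters of the vitamins taken up by these receptors mostly fell under the TMM scaling. Of 13 genes of folate, cobalamin and retinol handling, 1 rose and 10 fell in CKD (median -0.89), against 4 up and 3 down with library totals alone. Tcn2, the plasma carrier that brings cobalamin to megalin and Cd320, fell from a mean of 1222 ± 55.9 CPM to between 219 and 279 CPM (-2.29 ± 0.13; -1.28 with totals alone). Slc46a1, the proton-coupled folate transporter, fell from 36.2 ± 2.61 to 8.93 ± 0.134 CPM (-2.02 ± 0.13; -1.01 with totals alone). Cd320 fell (-0.80 ± 0.13), but was at 0.21 and not called with totals alone. Folr2, the folate receptor of macrophages, was near 1 CPM in CKD and not called (-0.60 ± 0.38, edgeR adjusted p 0.174). With colchicine 5 of the 13 fell, and 2 fell without CKD replicate 3, colchicine replicate 2 or colchicine replicate 3. Ttr, which carries the retinol-binding protein complex, fell by 1.36 ± 0.19 and the folate carrier Slc19a1 by 0.56 ± 0.12 on the log2 scale.

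The partner of Fcgrt moved the other way under the TMM scaling. With library totals alone Fcgrt was at a log2 fold change of -0.12 in CKD and was not called. B2m, the light chain of the neonatal Fc receptor and of major histocompatibility class I molecules, stood at 416, 521, 352 and 363 CPM in control, 863, 949, 911 and 941 CPM in CKD and 1277, 789, 809 and 878 CPM with colchicine. The controls lay below all other libraries, and the rise in CKD was 1.15 ± 0.15 on the log2 scale (edgeR adjusted p 8.04e-06). Of 7 genes for immunoglobulin receptors and B2m, 6 rose in CKD (median 3.06; 7 rose with library totals alone). Fcgr3 went from 4.64 ± 0.277 to 154 ± 9.21 CPM and its signalling chain Fcer1g rose by 3.78 ± 0.15. Several of these are macrophage genes, and the macrophage markers named above rose with them. With colchicine 2 of the 7 fell, the inhibitory receptor Fcgr2b (-0.68 ± 0.12) and the epithelial receptor Pigr (-0.41 ± 0.09). In the same comparison 6 of 10 macrophage markers fell, to a sum of 1269 to 1878 CPM, and 2 fell without CKD replicate 3 or colchicine replicate 3.

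Most brush border partners and transcription factors fell under the TMM scaling. Of 10 brush border genes 9 fell in CKD (median -1.66; 7 fell and 1 rose with library totals alone). Nherf1, a scaffold that binds apical transporters, fell by 1.56 ± 0.08 and Ush1c, a linker of microvillar protocadherins, by 1.94 ± 0.13. With colchicine 6 of the 10 fell again, among them the sodium-proton exchanger Slc9a3 (-1.13 ± 0.18) and the actin bundler Vil1 (-0.82 ± 0.14). Leaving out 1 library gave from 2 (without CKD replicate 3) to 8 (without colchicine replicate 4). Of 12 transcription factors of the proximal tubule and the lysosome, 1 rose and 9 fell in CKD (median -1.06; 5 rose and 4 fell with totals alone). Hnf4a fell by 1.98 ± 0.15 and the bile acid receptor Nr1h4 by 1.84 ± 0.12, and these were also lower with totals alone (-0.97 and -0.83). Tfeb, a regulator of lysosomal genes, was not called (0.18 ± 0.14, edgeR adjusted p 0.276). With colchicine 5 of the 12 fell, among them Ppara (-1.24 ± 0.12), Hnf4a (-0.90 ± 0.15) and Nr1h4 (-0.75 ± 0.12).

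**Figure D4:**
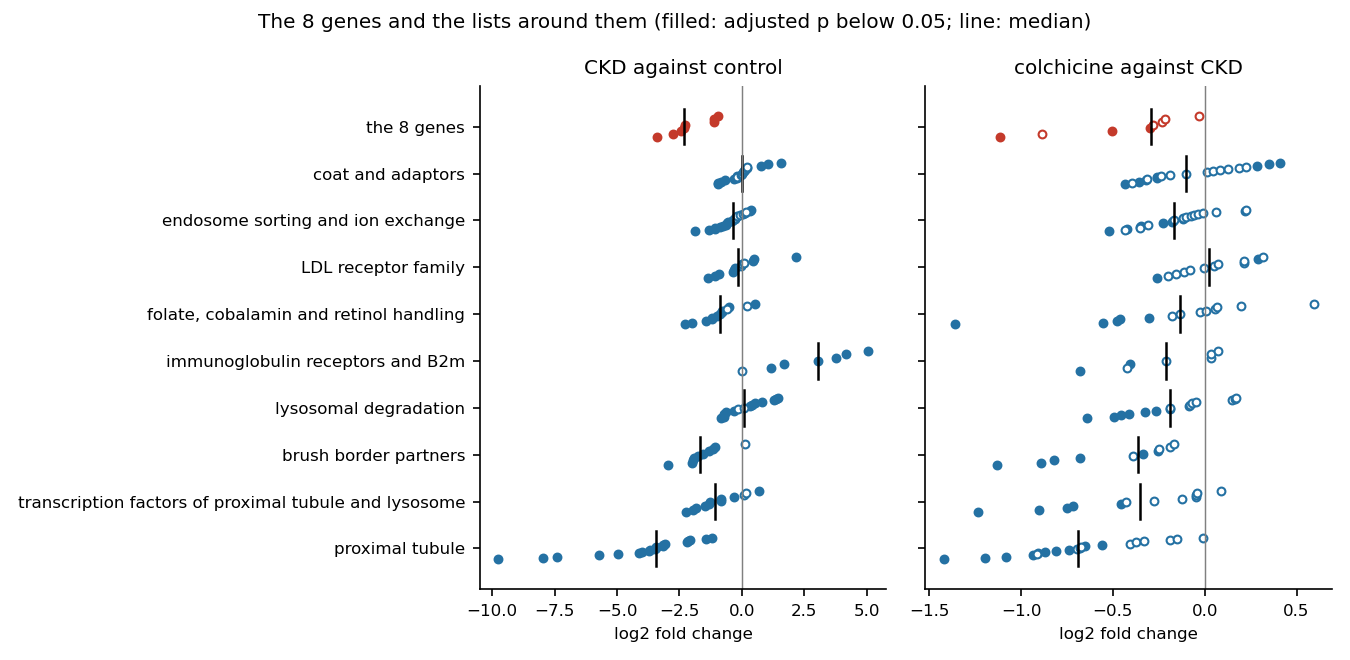
Log2 fold changes of the 8 genes and of the listed genes, 1 point per tested gene, filled where called, with a line at each median, for CKD against control and colchicine against CKD. The 8 genes have medians of -2.30 and -0.29, and the immunoglobulin receptor list lies above 0 in CKD with a median of 3.06.

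The other marker lists give the setting of these changes. In CKD 3 of 6 podocyte markers rose and 2 fell (5 rose with library totals alone). Of 6 intercalated cell markers 5 fell and 1 rose (3 fell and 1 rose with totals alone). Of 5 markers of the thick ascending limb 3 fell and 1 rose (2 and 2 with totals alone). With colchicine against CKD, 4 of 5 markers of the thick ascending limb and 2 of 6 intercalated cell markers fell, and 2 of 8 endothelial, 1 of 6 podocyte and 2 of 6 fibroblast markers rose. The intercalated count went to 0 without CKD replicate 2 or 3 or colchicine replicate 2 or 3. The fibroblast count went to 1 when any 1 of the 8 libraries other than colchicine replicate 1 was left out, and the podocyte count to 5 without colchicine replicate 1. Scaling by library totals alone kept 19 of the 20 proximal tubule markers lower in CKD.

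The 8 genes fell into patterns of different depth. Likeness was measured as the root mean square difference of log2 CPM over the 12 libraries, each gene centred on its own mean. Among the 8, Dab2 and Clcn5 were closest at 0.098, then Lrpap1 and Folr1 at 0.183, and Lrp2 and Fcgrt were farthest apart at 1.45. Of 13248 candidate genes, the 3 nearest to Lrp2 were Mep1a (0.138), a brush border protease, Kl (0.140), which encodes the FGF23 co-receptor Klotho, and Ak4 (0.165), a mitochondrial adenylate kinase. The nearest to Cubn were Slc3a1 (0.146), a subunit of the cystine transporter, Ugt1a7c (0.168), a glucuronosyltransferase, and Hao2 (0.192), a peroxisomal oxidase. Mep1a went from a mean of 1348 CPM in control to 141 in CKD and 69.8 with colchicine, and was called lower in both steps (edgeR adjusted p 5.90e-08 and 0.0133). Ak4, Slc3a1 and Ugt1a7c were also called lower in both steps. Kl and Hao2 were called lower in CKD but not between colchicine and CKD (edgeR adjusted p 0.134 and 0.150). Near to Dab2 were Selenot (0.0525) and Mmachc (0.0646), which processes cobalamin. The nearest to Fcgrt were Tmem192 (0.0663), Oard1 (0.0745) and Samm50 (0.0784), and none of these 3 was called between colchicine and CKD. All these neighbours were chosen for likeness over the same 12 libraries, so steps they share with the 8 genes follow from that choice.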

How the data were processed

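Kidney RNA was prepared with a CORALL RNA-seq kit, per the labels' protocols. Reads were handled with fastp, STAR and Salmon on GRCm39, per the submitters' processing notes, with no versions or settings stated in sources used here. The deposited whole numbers were read here as estimated counts per gene that the authors had rounded. All 28 values of 1000000 or more were multiples of 10.

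Counts were fitted in edgeR 4.0.16 (R 4.3.3) with filterByExpr at a minimum count of 10, TMM scaling and a robust quasi-likelihood model of 3 group means over 12 libraries. F tests were two-sided with Benjamini-Hochberg adjustment over 17841 genes. SE was taken from the log2 fold change and its F value. Ratios used a prior count of 0.5. Groups came from the sample titles. The script was tested on simulated data.

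The members, the 8 pathway lists and the 7 marker lists were chosen with earlier results of these data known. The rule for genes named took all 8 members, the 2 of each pathway list with the smallest p in CKD against control and in colchicine against CKD, 11 genes named whatever their result, and the 3 nearest in pattern to Lrp2, Cubn, Dab2 and Fcgrt among genes with a mean count of 50 or more. Some of the genes it took are not reported here. Alternatives were DESeq2 1.42.0, limma-voom (limma 3.58.1), other scalings and filters, subsets of libraries, an adenine slope and the replicate number as a block. The fit with colchicine replicate 1 alone was added after seeing the data. No pair of libraries within a group agreed within sampling noise.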

Additional observations from a re-analysis of the deposited data

Results flagged for a closer look

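Cubn in control replicate 4 stood at 374 CPM, far from the other 3 controls at 279 to 291 CPM. Fcgrt in colchicine replicate 1 stood at 67.7 CPM, below the other 3 colchicine libraries at 88.6 to 92.3 CPM. In both cases the gap to the nearest library, 0.873 and 0.850 of the group's range, was above Dixon's critical value for 4 samples. These were 2 of 24 groups examined, and chance alone gives about 5% of groups. Genes over 10000 bases, the class of Cubn, had a median deviation of 0.09 in control replicate 4, and the part of length was not tested.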

How the results depend on the processing

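The direction of each of the 8 genes against control, and its call, was kept under every alternative run except scaling by library totals alone. With totals alone 5 of the 8 were called lower in CKD, the log2 fold change of Dab2 turned to 0.0531, and over all genes 1850 were lower and 13197 higher in CKD and 1953 and 13762 with colchicine. Totals that leave out mitochondrial transcripts gave 3469 lower and 9546 higher in CKD, and 3477 and 10366 with colchicine, against 5952, 6076, 5964 and 6612. For colchicine against CKD, 1470 genes were lower and 1212 higher. DESeq2 called 2303 lower, the adenine slope gave 616 lower and 392 higher, and colchicine replicate 1 alone gave 644 and 537, with 1 of the 8 genes lower. That fit assumes the lone sample varies like the other groups. Leaving out 1 library at a time gave 573 to 3519 lower, 419 to 2882 higher and 1 to 6 of the 8 genes lower, with the fewest of each without CKD replicate 3. The most genes were called without colchicine replicate 1 (5 of the 8 lower), and the most of the 8 without colchicine replicate 4. The cause of these shifts was not tested.

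Replicate numbers did not pair the libraries. Same-numbered deviations correlated between -0.279 and 0.189, and 1 of 4 correlated best with its own number in colchicine against CKD and 0 of 4 in the other comparisons. The replicate block gave 694 genes higher with colchicine against CKD and changed no call of the 8 genes. Counts per gene were fewest for Amn, with 274 to 1268 counts per library, so its relative counting noise is the largest of the 8 genes. The spread among libraries limits precision as well. Whether counting used strand is not stated in sources used here, so antisense transcripts could add to these counts.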
